A study of Mus musculus with 2 samples.

Results

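The 9 heat shock genes Hspa1a, Hspa1b, Hsph1, Dnajb1, Dnaja1, Hsp90aa1, Hspa8, Hspe1 and Hspd1 were followed across innate lymphoid cells (ILCs) of the mouse colon and small intestine. They were chosen by name, as the inducible and constitutive chaperones of the cytosol and the mitochondrial chaperonin pair, and all 9 were among the 17238 genes of the deposited count table. ILCs are tissue lymphocytes that lack rearranged antigen receptors. Cells carrying the interleukin 7 receptor alpha chain had been sorted from C57BL/6 mice, for which the labels name no mutant allele or treatment, aged 8 weeks and titled as fed, and sequenced by droplet single-cell RNA sequencing that counts unique molecular identifiers (UMIs) at transcript 3′ ends. The colon library held 7549 cells and the small intestine library 5490 cells, 13039 in all. Each tissue was 1 library made from a pool of 8 mice, so the spread between mice cannot be seen, tissue and library cannot be told apart, and no test of a tissue difference was possible. Every interval below covers counting error only, and is too narrow for genes whose UMIs sit in few cells.

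Heat shock proteins are chaperones that keep other proteins folded. The Hsp70 chaperones bind unfolded stretches of protein, J-domain proteins such as Dnajb1 and Dnaja1 deliver clients to them and start their ATP cycle, and Hsph1 (Hsp110) releases the nucleotide again. Hsp90aa1 acts later, on kinases and receptors, while Hspd1 (Hsp60) and its lid Hspe1 (Hsp10) fold proteins inside mitochondria. When damaged protein accumulates, heat shock factor 1 binds heat shock elements, repeats of the unit nGAAn in alternating direction, and switches on Hspa1a and Hspa1b strongly, whereas Hspa8 is the Hsp70 made without stress. Like the immediate early genes, the inducible heat shock genes are also known to be induced when tissue is dissociated into cells, and the part of dissociation in the values below was not tested.

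On the mm10 mouse genome with the GENCODE vM21 annotation, Hspa1a (ENSMUSG00000091971, chr17:34969190-34972156, minus strand) and Hspa1b (ENSMUSG00000090877, chr17:34956436-34959238, minus strand) are neighbouring genes of 1 exon each. Hspe1 (chr1:55088132-55091307, plus strand) and Hspd1 (chr1:55077835-55088243, minus strand) lie head to head, with overlapping 5′ ends. The others are Hsph1 (chr5:149614287-149636376, minus strand), Dnajb1 (chr8:83608193-83612653, plus strand), Dnaja1 (chr4:40722150-40737149, plus strand), Hsp90aa1 (chr12:110690605-110702728, minus strand) and Hspa8 (chr9:40800984-40810087, plus strand). Of the 50-base runs of the Hspa1a transcript, 58.8% also occur in Hspa1b, but 0 of the 451 runs in its last 500 bases do, so the 3′ ends that this assay reads can be told apart. How reads that fit both genes were counted is not given in the sources used here.

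The promoters of 4 members are printed because they show how the control regions of the Hspa1a and Hspa1b pair, of Hsph1 and Dnajb1 and of the mitochondrial pair differ in the letters that heat shock factor 1 is known to read. Each window runs from 250 bases before to 50 bases after a RefSeq transcription start on GRCm38.p6, on the gene's strand, with matches to heat shock element letters in capitals. A match of 3 units was GAANNTTCNNGAA or its reverse complement TTCNNGAANNTTC, and a match of 2 units was GAANNTTC or TTCNNGAA, each of which reads the same on both strands. A 3-unit match contains 2-unit matches.
Hspa1a, chr17:34972107-34972406, minus strand: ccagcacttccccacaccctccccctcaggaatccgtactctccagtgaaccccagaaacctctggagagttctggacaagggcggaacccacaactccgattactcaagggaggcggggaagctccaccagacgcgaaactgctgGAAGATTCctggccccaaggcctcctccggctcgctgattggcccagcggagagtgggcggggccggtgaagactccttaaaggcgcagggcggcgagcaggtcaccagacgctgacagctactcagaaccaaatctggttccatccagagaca
Hsph1, first start, chr5:149636287-149636586, minus strand: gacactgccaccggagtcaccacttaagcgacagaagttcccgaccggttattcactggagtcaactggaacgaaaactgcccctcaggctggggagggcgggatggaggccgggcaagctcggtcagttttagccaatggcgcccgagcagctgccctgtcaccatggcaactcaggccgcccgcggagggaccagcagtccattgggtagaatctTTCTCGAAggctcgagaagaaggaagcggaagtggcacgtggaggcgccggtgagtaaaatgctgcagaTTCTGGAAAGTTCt
Dnajb1, first start, chr8:83607925-83608224, plus strand: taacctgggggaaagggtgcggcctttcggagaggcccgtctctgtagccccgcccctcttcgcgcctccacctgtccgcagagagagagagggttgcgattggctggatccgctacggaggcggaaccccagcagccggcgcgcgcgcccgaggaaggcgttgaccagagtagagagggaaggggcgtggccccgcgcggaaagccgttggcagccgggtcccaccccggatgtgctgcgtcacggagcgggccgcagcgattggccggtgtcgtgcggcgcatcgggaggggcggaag
Hspe1, chr1:55087898-55088197, plus strand: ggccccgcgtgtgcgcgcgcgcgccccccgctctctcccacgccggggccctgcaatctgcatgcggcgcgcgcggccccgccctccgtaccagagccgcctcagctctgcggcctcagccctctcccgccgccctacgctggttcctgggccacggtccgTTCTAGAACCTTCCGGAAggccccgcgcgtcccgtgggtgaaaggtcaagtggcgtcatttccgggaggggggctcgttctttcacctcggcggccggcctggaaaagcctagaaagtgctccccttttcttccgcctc

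Windows were found for 7 of the 9 members, and Hsp90aa1 and Hspa8 are named only. The 3-unit letters were present in 3 of the 7, Hsph1, Hspe1 and Hspd1, and in 0.662% of 27025 genes, counting a gene once if any of its windows held them. Hspe1 held them from 89 bases before its start in the run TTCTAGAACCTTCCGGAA (chr1:55088059-55088076), and the same 18 bases, read on the other strand as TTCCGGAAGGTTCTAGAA, lay 144 bases before the second start of Hspd1. It thus lies between the start of Hspe1 and that second start of Hspd1, but inside Hspd1 when counted from the outermost end of that gene. In Hsph1 the letters TTCTGGAAAGTTC (chr5:149636288-149636300) began 36 bases after the first start. The windows of Hspa1a and Hspa1b were identical at 296 of 300 positions and each held only the 2-unit form, 104 bases before the start, a form found in 9.04% of all genes as GAANNTTC and in 9.6% as TTCNNGAA. Dnaja1 held a 2-unit match 124 bases before its first start, and the Dnajb1 windows held none of these letters. Only exact matches of fixed spacing were searched. Elements with other letters or gaps were not looked for, so a window without a match is not shown to lack heat shock elements.

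The libraries gave 22332691 UMIs in colon cells and 15080081 in small intestine cells, with medians of 2600 and 2579 UMIs per cell. Droplets leak RNA: barcodes too small to be cells (10 to 50 UMIs) had 250.1 UMIs of Hspa1a per 1000000 UMIs in the colon library and 198 in the small intestine library, and such free RNA made up an estimated 8.25% and 5.35% of the UMIs in cells. The 2 libraries shared 60 cell barcodes, against 56.2 that independent draws from the barcode list would give. Cells were grouped by at least 1 UMI of a marker: Ccr6, a chemokine receptor of LTi-like group 3 ILCs (357 colon and 541 small intestine cells), Ncr1, the NKp46 receptor (665 and 1605), Gata3, the group 2 factor (4218 and 1643), Klrd1, the CD94 receptor of NK cells and group 1 ILCs (482 and 172), and Cd3e, a T cell receptor chain partner (1384 and 429). The groups overlap, and marker-negative cells include cells whose marker was not captured: of colon Ccr6+ cells, 34.7% also held a Gata3 UMI and 13.4% a Cd3e UMI, against 21.8% and 1.85% of small intestine Ccr6+ cells. Marker lists of the cell types, of which the LTi-like one includes Ccr6 itself, were summed in UMIs per 1000000 UMIs (CPM). The LTi-like list stood at 4407 CPM in colon and 3670 CPM in small intestine Ccr6+ cells, against 1330 and 1107 CPM over all cells. The T cell list stood at 3736 and 4881 CPM in Cd3e+ cells against 1351 and 1163 CPM over all cells, the group 2 list at 2915 and 2605 CPM in Gata3+ cells against 2168 and 1419 CPM, and the group 1 and NK list at 3022 and 5169 CPM in Klrd1+ cells against 434 and 639.7 CPM. In Ncr1+ cells that last list, which includes Ncr1, stood at 2639 and 1480 CPM. UMIs of 7 of its 8 genes were seen there in each tissue, and the NK factor Eomes was at 0. No level of Eomes over all cells is given here, so that 0 cannot be weighed. Over all cells, myeloid markers summed to 196 CPM in the colon library and 262 CPM in the small intestine library, stromal and endothelial ones to 28.4 and 59.2 CPM, epithelial ones to 14.0 and 31.3 CPM and mast cell ones to 1.48 and 3.38 CPM.

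Over all cells, Hspa1a, Dnajb1 and Hsph1 were the members furthest above the small intestine in the colon. Hspa1a, the main stress-inducible Hsp70, had 5425 UMIs or 243 CPM in colon cells and 1986 UMIs or 132 CPM in small intestine cells, a ratio of 1.84 (95% interval 1.75 to 1.94). Its J-domain partner Dnajb1 had 190.4 CPM in colon cells and 105 CPM in small intestine cells, a ratio of 1.81 (1.71 to 1.92). Hsph1, the Hsp110 exchange factor, had 22.9 CPM in colon cells and 13.1 CPM in small intestine cells, a ratio of 1.75 (1.48 to 2.07). The near copy Hspa1b had a ratio of 1.28 (1.07 to 1.52) from 378 colon and 200 small intestine UMIs. These 4 genes were thus higher in the colon library, by less than 2-fold.

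Of the other members, Hspa8 differed most between the tissues. This gene, the Hsc70 of unstressed cells, had 1839 CPM in colon cells and 1291 CPM in small intestine cells, a ratio of 1.42 (1.40 to 1.45). Hsp90aa1, a cytosolic Hsp90, had a ratio of 1.11 (1.07 to 1.15), and Dnaja1, a J-domain protein of the cytosol, one of 1.01 (0.987 to 1.04) at 774 CPM in colon and 765 CPM in small intestine cells. Of the mitochondrial pair, Hspe1 was higher in colon cells at 277 CPM, against 212 CPM in small intestine cells (ratio 1.31, 1.25 to 1.36), while Hspd1 was lower at 98.8 CPM, against 116 CPM (0.853, 0.801 to 0.909).

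Read against all genes, a colon level at least 2-fold higher was reached by 0 of the 9 members and by 5.42% of 11962 tested genes, and one at least 2-fold lower by 0 members and 8.92% of genes. The interval lay above 1 for 7 members, as for 15.5% of all genes, and below 1 for 1, as for 45.3%. The median log2 ratio of the members was 0.38 and that of all genes -0.20, so Hspd1, at -0.23, sat near the middle of all genes. Scaling the libraries by the median ratio of genes in place of total UMIs adds 0.22 to every log2 ratio. Then 3 members, Hspa1a at 1.10, Dnajb1 at 1.07 and Hsph1 at 1.02, pass 2-fold, as 7.07% of all genes do under that scaling, and Hspd1 is at -0.00982.

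**Figure D1:**
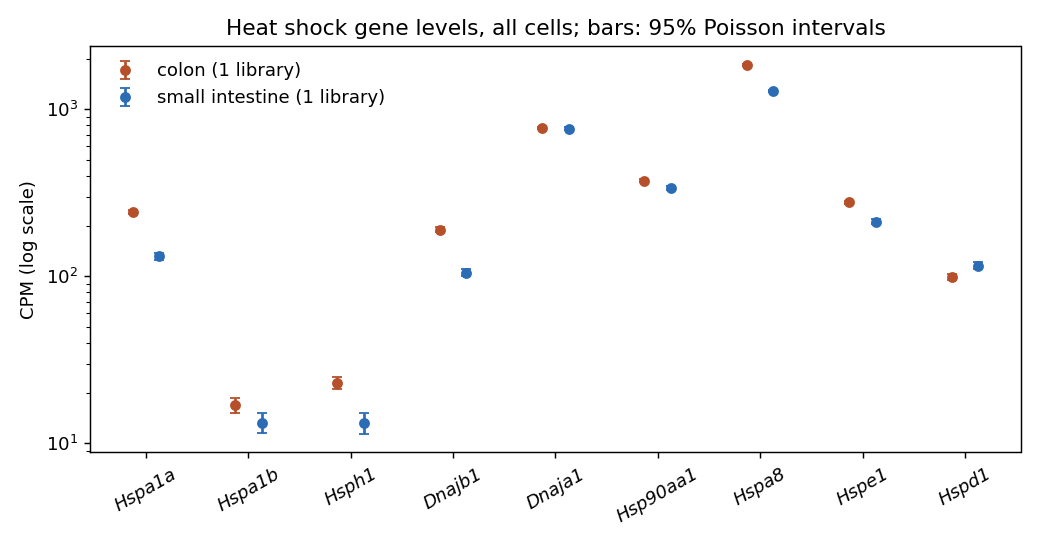
CPM of each gene over all cells of the colon library (left point of each pair) and the small intestine library (right point), on a log axis, with 95% Poisson intervals for counting error. Hspa1a, Hsph1 and Dnajb1 lie furthest apart, and Hspd1 is the one gene whose colon point is lower. Levels are not per length and are read within a gene only.

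The genes differed most in how their UMIs were spread over cells. Hspa1a was at 0 UMIs in 89.1% of colon cells and 94.7% of small intestine cells, yet reached 143 UMIs in 1 colon cell and 70 in 1 small intestine cell. The 147 colon cells (1.95%) with at least 10 Hspa1a UMIs held 67.0% of the gene's UMIs, and the 66 small intestine cells (1.20%) held 72.3%. A small minority of cells thus carried most of the transcript in either tissue. At the other end, 340 of the 826 colon cells and 137 of the 290 small intestine cells with any Hspa1a UMI had just 1.

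Dnajb1 had the same shape in a milder form. It was seen in 24.9% of colon cells and 15.8% of small intestine cells, and 77 colon and 21 small intestine cells had at least 10 UMIs. Taking for each gene its highest 1% of cells (75 colon and 55 small intestine cells), these held 48.5% of Hspa1a UMIs in the colon and 65.8% in the small intestine, and 25.4% and 34.9% of Dnajb1 UMIs. For the sparser Hspa1b and Hsph1 the shares were 40.2% and 63.5%, and 32.0% and 40.4%. The other 5 members were spread evenly by comparison: the top 1% of cells held 5.17% of Hspa8 UMIs in the colon and 6.90% in the small intestine, and at most 10.6% for Dnaja1, Hsp90aa1, Hspe1 and Hspd1 in either tissue.

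The variance between cells beyond counting error, as an excess squared coefficient of variation, was 34.7 for Hspa1a in the colon and 52.7 in the small intestine. Of 3807 genes with at least 500 UMIs in each library, 10 in the colon and 8 in the small intestine exceeded it. Of the members that passed this filter, Dnajb1 followed at 8.20 and 13.9, exceeded by 28 and 27 genes. The median gene stood at 0.173 and 0.217. Hspa1b, at 13.4 and 30.8, and Hsph1, at 6.53 and 12.1, had fewer than 500 UMIs in the small intestine library and were not among the genes compared. Dnaja1 (1.61 and 1.66) and Hsp90aa1 (1.49 and 1.35) varied more than most genes. Hspa8 (0.374 and 0.663), Hspe1 (0.469 and 0.642) and Hspd1 (0.785 and 0.919) varied less than Dnaja1 and Hsp90aa1, but also more than most genes. They were exceeded by 1096, 904 and 559 of the 3807 genes in the colon and by 652, 678 and 442 in the small intestine. After each cell was thinned to 1000 UMIs the Hspa1a values were 38.7 and 55.4.

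**Figure D2:**
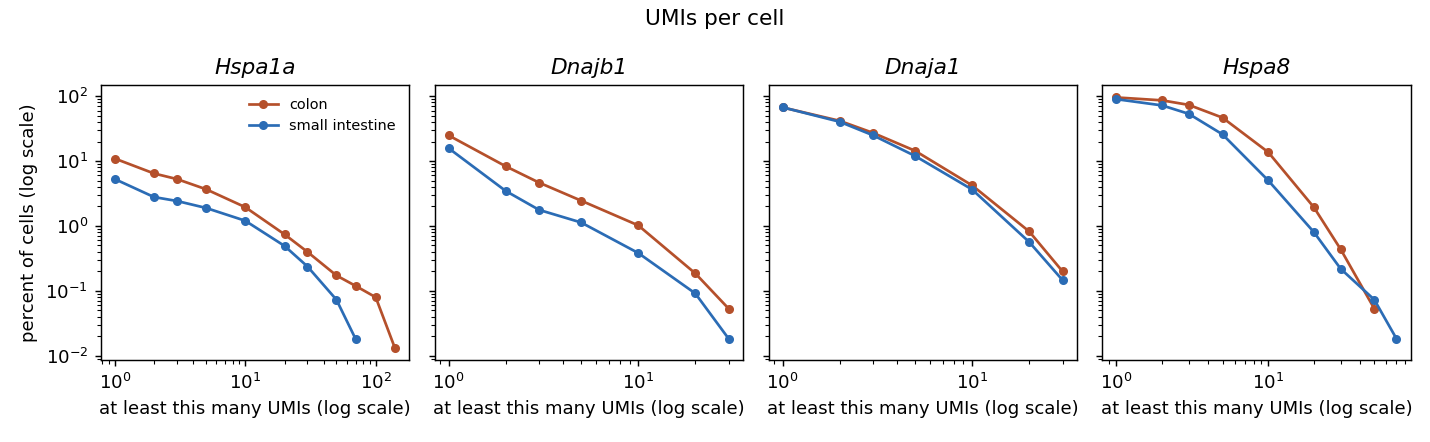
Percent of cells (log axis) with at least the number of UMIs on the horizontal axis (log scale) for 4 genes, in the colon (orange) and the small intestine (blue). Hspa1a starts at 10.9% of colon and 5.28% of small intestine cells and falls slowly over the UMI axis, whereas Hspa8 starts at 95.6% and 89.9% and falls steeply past 10 UMIs.

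Free RNA can put a UMI into a cell that does not express the gene. Hspa1a UMIs were seen in 10.9% of colon cells and 5.28% of small intestine cells, while the free RNA of each library, placed in cells by their depth, would by itself leave a UMI in 5.88% and 2.87%. After thinning to 1000 UMIs the observed shares were 7.14% and 3.44%. The expected shares are for cells at full depth, and none at 1000 UMIs is given here to set beside these. For Dnajb1 the observed 24.9% and 15.8% compare with 5.23% and 2.37% expected from free RNA, for Hspa8 95.6% and 89.9% with 38.3% and 18.9%, and for Hsph1 5.38% and 3.11% with 0.887% and 0.146%. Free RNA accounts for an estimated 20.6 of the 243 colon CPM of Hspa1a and 10.6 of the 132 small intestine CPM.

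Among the marker groups, the distance between the tissues was widest in Ccr6+ cells for Hspa1a, Hspa1b and Dnajb1, though not for every member. Hspa1a stood at 529.6 CPM in colon Ccr6+ cells and 105 CPM in small intestine Ccr6+ cells, a ratio of 5.05 (4.23 to 6.06). Dnajb1 stood at 336 and 91.2 CPM, a ratio of 3.68 (3.03 to 4.50), and Hsph1 at 37.3 and 12.9 CPM, a ratio of 2.89 (1.69 to 5.20). Hspa1b had 63 UMIs in the colon and 7 in the small intestine group, a ratio of 7.67 (3.51 to 19.9). These were the 4 of 9 members at least 2-fold higher in colon Ccr6+ cells, where 3.4% of all genes were, and 0 members were at least 2-fold lower, where 7.47% were. Colon Ccr6+ cells were also deeper, with a median of 3443 UMIs against 2366. When the marker was called on cells thinned to equal depth the Hspa1a log2 ratio was 2.60, against 2.34 as counted. It was 4.15 with at least 2 Ccr6 UMIs required, 3.47 in cells with no UMI of the other markers, and 1.16 without cells with 10 or more Hspa1a UMIs.

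Ncr1+ cells came next for Hspa1a, Hspa1b and Dnajb1. Hspa1a stood at 378 CPM in colon and 155 CPM in small intestine Ncr1+ cells, a ratio of 2.43 (2.20 to 2.69). Dnajb1 stood at 250.1 and 93.8 CPM, a ratio of 2.67 (2.35 to 3.03), and Hsph1 at 36.3 and 12.9 CPM, a ratio of 2.82 (2.0 to 4.0). With 3 of 9 members at least 2-fold higher (4.13% of all genes) and 0 lower (9.26%), the same genes apart from Hspa1b (1.95, 1.39 to 2.75) stood out as in Ccr6+ cells. With the marker called after thinning, the Hspa1a log2 ratio in Ncr1+ cells was 0.73, against 1.28 as counted, and so below 2-fold. In cells with no UMI of the other markers it was 1.81. The group differed in make-up between tissues: 32.6% of colon Ncr1+ cells also held a Klrd1 UMI and 31.4% a Gata3 UMI. In the small intestine these shares were 5.61% and 23.2%. The group 3 ILC marker list stood at 6035 CPM in colon and 9145 CPM in small intestine Ncr1+ cells, against 4603 and 8556 CPM over all cells. The part of make-up in these ratios was not tested.

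In the remaining groups the tissues were closer for Hspa1a. Gata3+ cells of the colon had 194 CPM of Hspa1a and those of the small intestine 151 CPM (ratio 1.29, 1.19 to 1.40), and 0 of 9 members were 2-fold higher (4.4% of all genes) or lower (7.42%). Klrd1+ cells had 188 and 138 CPM (1.36, 1.03 to 1.80), and the 1 member at least 2-fold higher (4.88%) was Hsph1, on 47 colon and 4 small intestine UMIs (3.51, 1.29 to 13.4), with 0 lower (7.17%). Cd3e+ cells of the colon had 214 CPM of Hspa1a and those of the small intestine 234 CPM, a ratio of 0.914 whose interval of 0.798 to 1.05 includes 1, as did those of Hspa1b, Hsph1 and Dnajb1 there. In Cd3e+ cells 0 members were 2-fold higher (4.27%) or lower (5.12%). The median log2 ratio of the 9 members was 0.53 in Ccr6+, 0.66 in Ncr1+, 0.18 in Gata3+, 0.37 in Klrd1+ and -0.13 in Cd3e+ cells, and that of all genes lay between -0.21 and -0.15.

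**Figure D3:**
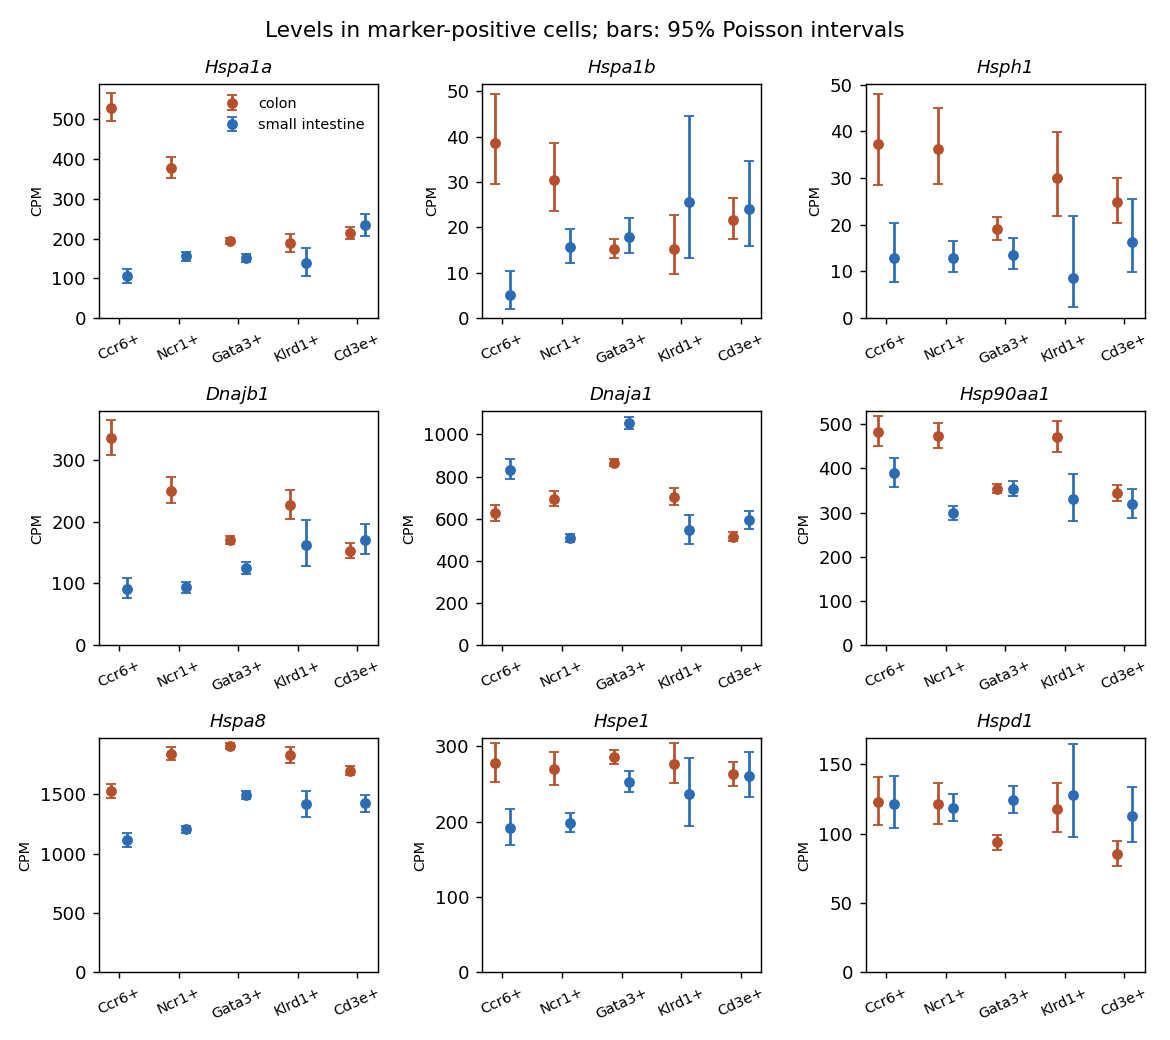
CPM of each gene in cells with at least 1 UMI of Ccr6, Ncr1, Gata3, Klrd1 or Cd3e, colon left and small intestine right, with 95% Poisson intervals. Hspa1a, Hspa1b, Hsph1 and Dnajb1 separate the tissues in Ccr6+ and Ncr1+ cells. Dnaja1 and Hspa8 are highest in Gata3+ cells of either tissue, for Hspa8 with intervals that overlap those of other groups.

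Ccr6+ cells stood at opposite ends of the order of groups for Hspa1a in the 2 tissues. In the colon it ran Ccr6+, Ncr1+, Cd3e+, Gata3+, Klrd1+ from high to low, with overlapping intervals between Cd3e+ and Gata3+ and between Gata3+ and Klrd1+. In the small intestine it ran Cd3e+, Ncr1+, Gata3+, Klrd1+, Ccr6+, with neighbours from Ncr1+ downwards overlapping. Within the colon, Ccr6+ cells had 2.40 times (2.23 to 2.59) the Hspa1a level of Ccr6- cells and 2.53 times (1.90 to 3.33) the Hspa1b level. These were 2 of 9 members at least 2-fold higher, as were 8.16% of all genes, and 0 were lower (6.55%). Within the small intestine, Ccr6+ cells had 0.780 times the Hspa1a level of Ccr6- cells, and Hspa1b, at 7 UMIs, was the 1 member at least 2-fold lower (0.357, 0.141 to 0.749; 6.39% of all genes), with 0 higher (5.83%). Against the negative cells of their tissue, the other 4 markers had 0 of 9 members at least 2-fold apart. In the colon, 4.38% of all genes were that much higher and 6.39% lower for Ncr1, 2.9% and 6.4% for Gata3, 4.81% and 6.73% for Klrd1, and 3.79% and 5.71% for Cd3e. In the small intestine the shares were 1.9% and 5.68% for Ncr1, 2.75% and 3.85% for Gata3, 10.5% and 8.55% for Klrd1, and 3.93% and 9.42% for Cd3e.

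The colon Ccr6+ level rested on few cells. Of 357 colon Ccr6+ cells, 23 (6.44%) had at least 10 Hspa1a UMIs, against 4 of 541 (0.739%) in the small intestine, and those 23 cells held 86.2% of the group's Hspa1a UMIs. In Ncr1+ cells there were 27 such cells in the colon (4.06%) and 27 in the small intestine (1.68%), and in Gata3+ cells 76 (1.80%) and 26 (1.58%). Klrd1+ cells had 9 (1.87%) and 1 (0.581%), and Cd3e+ cells 18 (1.30%) and 7 (1.63%). As given above, colon Ccr6+ cells were the deeper ones, and the part of depth in these shares was not tested.

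Leaving out these cells levelled the colon groups. Hspa1a then stood at 77.5 CPM in colon Ccr6+ cells, 75.4 in Ncr1+, 77.5 in Gata3+, 84.2 in Klrd1+ and 107 in Cd3e+ cells. In the small intestine the same groups stood at 34.7, 36.2, 32.1, 83.7 and 51.6 CPM. The log2 ratio of colon Ccr6+ to Ccr6- cells was then -0.087, against 1.27 with all cells. The tissues still differed in what was left, at 82.0 CPM over all colon cells and 37.0 CPM over all small intestine cells. The split uses Hspa1a itself, so it describes where the UMIs lie and is no independent evidence.

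**Figure D4:**
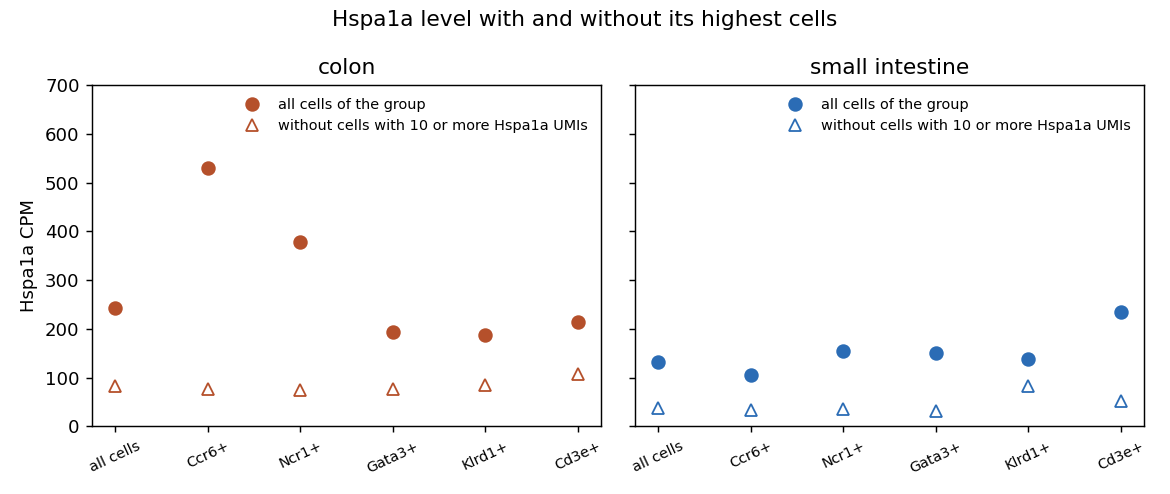
Hspa1a CPM in all cells of each group (filled circles) and without cells with 10 or more Hspa1a UMIs (open triangles), colon left and small intestine right. The colon circles range from 188 to 529.6 CPM over the marker groups, whereas the colon triangles lie between 75.4 and 107 CPM.

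Dnajb1 was not used to make that split, but it rises with Hspa1a across cells, as given below. Its values are thus no independent evidence either. Dnajb1 kept part of its difference. Without the same cells it stood at 192 CPM in colon and 86.7 CPM in small intestine Ccr6+ cells, and at 179.6 and 77.6 CPM in Ncr1+ cells. Hsph1 came to 18.9 and 11.6 CPM in Ccr6+ cells. The Ccr6+ level was as large without likely doublets, which were 44 of the 357 colon and 30 of the 541 small intestine Ccr6+ cells: Hspa1a then stood at 631 CPM in colon and 115 CPM in small intestine cells of the group. Markers of B and plasma cells summed to 127 CPM in colon and 435 CPM in small intestine Ccr6+ cells, against 2471 and 7228 CPM over all cells, and leaving out the 10 colon and 13 small intestine cells rich in antibody transcripts left Hspa1a over all cells at 244 and 133 CPM.

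Dnaja1 and Hspa8 ordered the groups in another way than Hspa1a. Dnaja1 was highest in Gata3+ cells of either tissue, with 867 CPM in colon and 1054 CPM in small intestine cells. Against Gata3- cells of the same tissue these levels were 1.38 times and 1.70 times as high. In Ccr6+ cells its tissue ratio ran against that of Hspa1a, with 627 CPM in colon and 834 CPM in small intestine cells (0.752, 0.691 to 0.819), while in Ncr1+ cells it was at 696 and 509 CPM (1.37). Hspa8 was higher in the colon in all 5 groups, by ratios from 1.19 in Cd3e+ to 1.53 in Ncr1+ cells. In both tissues it was highest in Gata3+ and lowest in Ccr6+ cells. The Gata3+ interval of Hspa8 overlapped those of Ncr1+ and Klrd1+ cells in the colon, and those of Cd3e+ and Klrd1+ cells in the small intestine. Hsp90aa1 was above the small intestine in Ncr1+ (1.58), Klrd1+ (1.43) and Ccr6+ cells (1.24) and level in Gata3+ cells (0.998, 0.945 to 1.05). Its order of groups in the colon was that of Dnajb1. Intervals of Hsp90aa1 overlapped there between Ccr6+ and Ncr1+, Ncr1+ and Klrd1+, and Gata3+ and Cd3e+ cells.

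The mitochondrial pair varied less between groups than Hspa1a. From the highest to the lowest group, Hspe1 differed 1.09-fold in the colon and 1.36-fold in the small intestine, and Hspd1 1.44-fold and 1.14-fold, against 2.82-fold and 2.23-fold for Hspa1a. Hspa8, at 1.25-fold and 1.34-fold, and Hsp90aa1, at 1.41-fold and 1.30-fold, varied about as little. The tissue ratios of the pair parted in Gata3+ cells, at 1.13 for Hspe1 and 0.754 for Hspd1. Across cells the counts of Hspe1 and Hspd1 were hardly correlated: Pearson's r of log2(UMIs per 10000 + 1) was 0.062 over the 7549 colon cells and 0.075 over the 5490 small intestine cells. Hspe1 was at 0 UMIs in 50.2% of colon and 60.1% of small intestine cells, and Hspd1 in 76.8% and 74.4%. Counts this sparse hold r low, so these values do not show whether the genes vary together.

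Some cells held several of Hspa1a, Hspa1b, Hsph1 and Dnajb1, and most of the cells with any held 1. Of the 36 pairs of members, Hspa1a with Hspa1b had r of 0.41 in the colon and 0.45 in the small intestine, Hspa1a with Dnajb1 0.30 and 0.29, and Hspa1a with Hsp90aa1 0.24 and 0.19. After thinning to 1000 UMIs, the first pair had 0.25 and 0.30 and the second 0.24 and 0.25. Thinning sets all cells to the same depth but also makes counts sparser, with Hspa1b seen in 1.31% of colon cells in place of 3.64%. The part of depth and of sparser counts in these lower values was not tested. Exactly 1 of the 4 genes was seen in 1917 colon cells (25.4%) and 1005 small intestine cells (18.3%), 2 in 446 and 122 cells, 3 in 137 and 49, and all 4 in 41 (0.543%) and 14 (0.255%). None of them was seen in 66.3% and 78.3% of cells, and no value expected from separate draws is set beside these counts.

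Cells with at least 1 Hspa1a UMI (826 colon, 290 small intestine) were set against cells with none (6723 and 5200). In the colon, Dnajb1 was at 591 CPM in cells with Hspa1a and 132 CPM in cells without (ratio 4.46, 4.19 to 4.75), and Hsp90aa1 at 747 and 318 CPM (2.35, 2.23 to 2.47). In the small intestine, Dnajb1 was at 603 and 76.4 CPM (7.89, 7.09 to 8.78), and Hsp90aa1 at 838 and 308 CPM (2.72, 2.51 to 2.95). Hspa1b was 11.1 times (8.97 to 13.7) and 26.9 times (20.1 to 36.3) as high, and Hsph1 4.42 and 5.07 times. Hspa1b, Hsph1, Dnajb1 and Hsp90aa1 thus had higher ratios than Dnaja1, at 1.37 and 1.38 times, or Hspa8, at 1.47 and 1.81 times. Hspe1 (1.5 and 2.06) and Hspd1 (1.53 and 1.91) lay between them.

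All 8 other members had an interval above 1 in each tissue, where 6.61% of all genes in the colon and 5.26% in the small intestine did. At least 2-fold higher were 4 of the 8 in the colon (1.77% of all genes) and 5 of the 8 in the small intestine (4.06%). Cells with Hspa1a were barely deeper, with median UMIs of 2737 against 2584 in the colon and 2692 against 2568 in the small intestine, and likely doublets were 8.84% against 5.70% and 4.83% against 4.37%. Markers of B and plasma cells summed to 5417 CPM in cells with and 2044 CPM in cells without Hspa1a in the colon, but to 382 and 7625 CPM in the small intestine. The part of depth, doublets and antibody transcripts in these ratios was not tested. The relation was present in each marker group for Dnajb1, from 1.89 times in Klrd1+ to 6.48 times in Ccr6+ cells of the colon, and from 2.88 times in Ccr6+ to 12.5 times in Gata3+ cells of the small intestine.

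**Figure D5:**
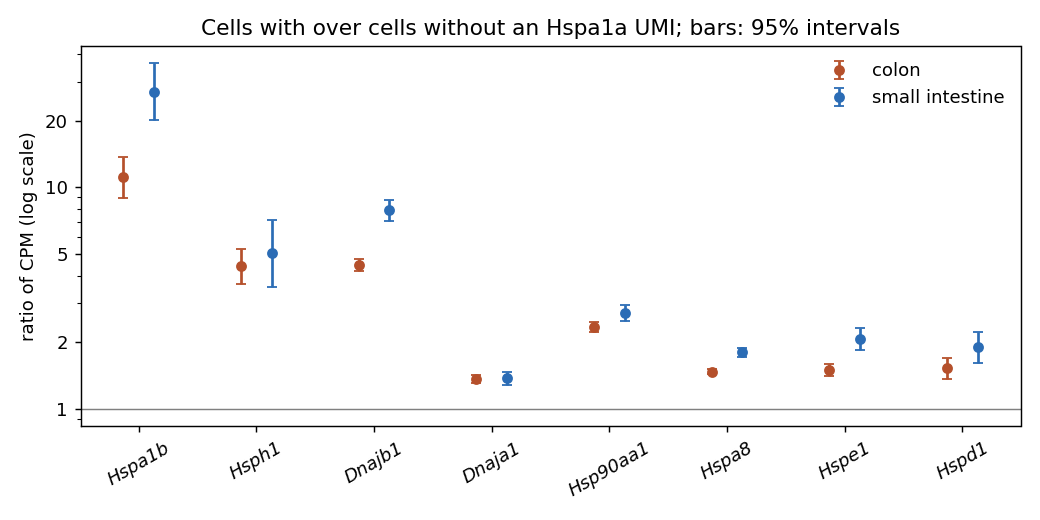
Ratio of CPM in cells with at least 1 Hspa1a UMI to CPM in cells with none (log axis), colon left and small intestine right, with 95% intervals for counting error. Hspa1b, Hsph1, Dnajb1 and Hsp90aa1 lie at 2.35 or above in both tissues, and Dnaja1 at 1.37 and 1.38.

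Other genes were ranked by how closely they followed the mean of the 9 members across cells, for the 4951 genes with a UMI in 5% or more of each library's cells, by the lower r of both tissues. The ranking was led by Hsp90ab1, the constitutive Hsp90, at 0.26 in the colon and 0.23 in the small intestine. Next came the immediate early transcription factors Egr1 (0.14 and 0.13) and Jun (0.18 and 0.11), then Rgs2 (0.12 and 0.10) and the polyubiquitin gene Ubb (0.12 and 0.10). Cacybp (0.10 and 0.095), Klf2 (0.085 and 0.091), Rhob (0.12 and 0.085) and the J-domain gene Dnaja4 (0.11 and 0.070) were also among the 10 highest. The median of the ranked genes was -0.00108. These are weak correlations in sparse counts, given to describe which genes came closest.

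Other chaperones and stress genes were read from lists. Between tissues over all cells, 5.42% of all genes had a colon level at least 2-fold higher and 8.92% one at least 2-fold lower. Of 29 other cytosolic chaperone genes tested between tissues over all cells, 1 had a colon level at least 2-fold higher, the small heat shock protein Hspb1 on 41 colon and 4 small intestine UMIs (6.92 times), and 0 were lower, with a median log2 ratio of -0.027. The interval lay above 1 for 9 of the 29 and below 1 for 13, against 15.5% and 45.3% of all genes. Of 7 subunits of the TRiC chaperonin, 7 mitochondrial chaperones and proteases and 19 genes of the endoplasmic reticulum, 0 were 2-fold apart in either direction, with medians of 0.13, -0.31 and -0.13 against -0.20 for all genes. At the shares of all genes, a count of 0 does not set a list of 7 genes apart. Intervals lay above 1 for 4 TRiC, 0 mitochondrial and 4 endoplasmic reticulum genes, and below 1 for 2, 6 and 9. For the 9 members that median was 0.38. The immediate early list, genes that respond within minutes to stimulation, was near all genes in its median only, at -0.24. The interval lay above 1 for 8 of its 21 genes and below 1 for 13. A colon level at least 2-fold higher was reached by 1 of 21 (Ier3, 4.88 times). At least 2-fold lower were 2, among them Jun at 866 CPM in colon and 2089 CPM in small intestine cells (0.415).

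In Ccr6+ cells the immediate early list did not lie on the side of Hspa1a. There 0 of 20 immediate early genes had a colon level at least 2-fold higher and 6 one at least 2-fold lower (3.4% and 7.47% of all genes), with a median log2 ratio of -0.45 against -0.18 for all genes, and both Jun and Egr1 were at 0.32 times the small intestine level. In Ncr1+ cells 1 of 21 was higher and 5 were lower (4.13% and 9.26% of all genes), with a median of -0.26 against -0.21. Within a tissue, cells with Hspa1a were set against cells without, where the interval lay above 1 for 6.61% of all genes and below 1 for 5.3% in the colon, and for 5.26% and 3.89% in the small intestine. Of the list, 15 of 21 immediate early genes had an interval above 1 and 1 below in the colon, and 13 of 21 above and 3 below in the small intestine, Egr1 at 2.39 and 2.70 times and Jun at 1.91 and 1.85 times. Of the cytosolic list, 11 of 29 in the colon and 8 of 27 in the small intestine had an interval above 1 and 1 in each tissue below 1, with the Hsp70 co-chaperone Bag3 at 4.43 and 3.49 times. The TRiC list had 1 and 0 of 7 above, the mitochondrial list 1 and 0 of 7, and the endoplasmic reticulum list 2 and 0 of 19, with its sensor target Hspa5 (BiP) at 0.982 and 0.790 times.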

How the data were processed

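Per the labels' protocols, IL7ra+ ILCs were sorted from pooled tissue of 8 mice per library and run on 10x Chromium 3′ version 2 chemistry. Cell Ranger 3.0.2 and mm10 are named in the submitters' processing notes. The values are raw UMI counts per gene and cell, deposited by the authors as 1 table of cells and as matrices of all barcodes. The table's counts equal the matrices' at the same barcodes, and how its cells were chosen is not given in the sources used here. Counts were summed over cells and divided by the cells' total UMIs to give CPM, with exact Poisson intervals. Ratios carry exact conditional binomial intervals (95%), for genes with at least 20 UMIs over both groups, and a ratio of 2 is the threshold used. Spread is the squared coefficient of variation beyond Poisson counting given each cell's total, and thinning draws 1000 UMIs per cell, with 0 cells below that. Free RNA was read from barcodes with 10 to 50 UMIs. Likely doublets are the highest Scrublet scores (scanpy 1.11.5), at 0.8% per 1000 cells, because the tool's own threshold called 1 and 0 cells, and they were kept except where stated. Numpy 2.4.6, scipy 1.17.1 and pandas 2.3.3 were used, and the ratio and interval code was tested on simulated data. The members and the 5 lists were chosen with earlier results of these data known. Of other genes, the 10 most like the members are named, except 1 that is not reported here, and from a list those among its 2 highest or 2 lowest ratios in a comparison. Values of such genes in other comparisons, and of Hspa5 in the colon, were chosen after they were seen. Alternatives covered scaling, marker calls, doublets, free RNA and the left-out cells. Leaving out cells with 10 or more Hspa1a UMIs, and cells with over 10 antibody UMIs, was added after seeing the data.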

Additional observations from a re-analysis of the deposited data

Results flagged for a closer look

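For several members the marker-positive cells lay above the marker-negative cells in one tissue and below them in the other, with intervals on opposite sides of 1. These differences between tissues were not tested, since each tissue is 1 library. In Ccr6+ over Ccr6- cells the ratio was 2.40 in the colon and 0.780 in the small intestine for Hspa1a, 2.53 and 0.357 for Hspa1b, and 0.799 and 1.10 for Dnaja1. In Ncr1+ over Ncr1- cells it was 1.36 and 0.848 for Dnajb1, and 1.31 and 0.846 for Hsp90aa1. Gata3+ over Gata3- cells went the other way, at 0.611 in the colon and 1.23 in the small intestine for Hspa1a, 0.773 and 1.65 for Hspa1b, 0.771 and 1.31 for Dnajb1, 0.879 and 1.08 for Hsp90aa1, and 0.877 and 1.11 for Hspd1. So did Cd3e+ over Cd3e- cells, at 0.855 and 1.90 for Hspa1a, 0.769 and 1.70 for Dnajb1, and 0.907 and 1.11 for Hspa8. Barcodes with at least 500 UMIs that are absent from the table of cells also held Hspa1a: 893 such barcodes in the colon library had 175 UMIs or 189.9 CPM, and 1263 in the small intestine library had 243 UMIs or 191 CPM, above the 3.26 and 2.36 CPM that 3 UMIs would give. In free RNA, read from barcodes with 10 to 50 UMIs, the level was 250.1 CPM for the colon library and 198 CPM for the other. The unlisted barcodes lay below it in the colon. In the small intestine the intervals overlapped, at 167.8 to 216.6 CPM in unlisted barcodes and 178.2 to 219.7 CPM in free RNA. The median depth of the unlisted barcodes was 855 UMIs in the colon and 831 in the small intestine library, and mitochondrial genes took 6.90% and 6.40% of their UMIs, against 2.69% and 2.49% in the listed cells.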

How the results depend on the processing

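With 1 library per tissue, no library could be left out, and intervals cover counting error only. No paired analysis was possible because each tissue has a single library. Over all cells, 69 of 72 single-gene values kept their direction between tissues. In the marker groups the lowest was 45 of 54, for colon Klrd1+ over Klrd1- cells. Next came 46 of 54 for colon Ccr6+ and for small intestine Gata3+ and Klrd1+ cells against their negatives, and 54 of 63 for Cd3e+ cells between tissues. The highest included 60 of 60, for Klrd1+ cells between tissues. Of the values that did not keep their direction, 1 was counted as a reversal, in colon Ccr6+ over Ccr6- cells. Between tissues over all cells, the median log2 ratio of the members, 0.38, became 0.60 under median-ratio scaling. It became 0.32 with free RNA subtracted and 0.53 without each gene's top 1% of cells. The count of members at least 2-fold higher, 0, became 3 under median-ratio scaling, 3 without the top 1% and 1 without cells with 10 or more Hspa1a UMIs, where 7.07%, 6.02% and 5.37% of all genes were. Each share in brackets below is that of all genes under the same setting. Leaving those cells out also raised the count between tissues to 1 in Gata3+ (4.36%) and 1 in Cd3e+ cells (4.23%), and within tissues to 2 for Klrd1+ (10.5%) and 1 for Cd3e+ cells (4.12%) of the small intestine. For colon Ccr6+ over Ccr6- cells it brought the count of 2 to 0 (8.08%) and reversed the Hspa1a log2 ratio, which was -0.087 in place of 1.27, as follows from removing the cells that held 86.2% of the UMIs. With at least 2 marker UMIs required, the count became 1 for Cd3e+ cells between tissues (4.39%), 1 for colon Ncr1+ (8%) and 1 each for small intestine Gata3+ (3.57%), Klrd1+ (20.6%) and Cd3e+ cells (6.06%) against their negatives. Cells with exactly 1 marker against none gave 4 for colon Ccr6+ (7.21%), 1 for colon Ncr1+ (4.31%), 2 for small intestine Klrd1+ (32.5%) and 2 for small intestine Cd3e+ cells (3.89%). Calling the marker after thinning gave 2 for Klrd1+ (5.13%) and 1 for Cd3e+ cells (4.23%) between tissues and 1 for small intestine Klrd1+ cells against their negatives (16.8%). Without likely doublets the count was 1 for colon Ncr1+ (5.15%) and 1 for small intestine Klrd1+ cells (11.3%). For these changes, other than the one stated, the cause was not tested. Depth limits Hspa1b and Hsph1 most, with 7 Hspa1b UMIs in small intestine Ccr6+ and 4 Hsph1 UMIs in small intestine Klrd1+ cells.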
